A study of Mus musculus with 6 samples.

Results

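Complement genes were examined in dermal fibroblasts sorted from mouse ears, at 8 of the 9 listed loci and among 18193 genes measured in all. The list covers the recognition chains C1qa, C1qb and C1qc, the central component C3, the alternative pathway genes Cfb and Cfp, the regulator Serping1 and the anaphylatoxin receptors C3ar1 and C5ar1. Every probe set whose platform annotation names 1 listed gene alone was taken, which gave 14 probe sets. C3 had no probe set under that rule and was not analysed here. The normal dermal fibroblasts (NDF) came from non-transgenic male FVB/n mice. The cancer-associated fibroblasts (CAF) came from dysplastic ears of age-matched male K14-HPV16 mice, in which the keratin 14 promoter drives human papillomavirus genes in basal keratinocytes. All mice were 4 months old, cells of both groups were sorted for the surface receptor PDGFRα, and each group had 3 arrays. Ears of 15 mice per genotype were used, and the labels do not say whether each biological repetition was a separate pool. The p-values therefore measure the spread between these samples, which may in part be technical.

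Complement is a cascade of plasma and tissue proteins that tags particles for uptake and recruits leukocytes. C1q, assembled from A, B and C chains, binds immune complexes and dying cells and starts the classical pathway with its partner proteases, and macrophages are a main source of it in tissues. The alternative pathway amplifies C3 cleavage through factor B, with properdin stabilising the convertase, and C1 inhibitor restrains the first proteases. The released fragments C3a and C5a act on the receptors C3aR1 and C5aR1, which are best known from myeloid cells. Fibroblasts and the liver also make several of the soluble components.

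Values are log2 intensities, so a difference of 1 is a doubling. All arrays had a median between 4.73 and 4.87, and the number of arrays limits the precision. CAF replicate 3 stood apart, with correlations over all probe sets of 0.916 and 0.932 with the other CAF arrays, which correlated at 0.980 with each other, as against 0.975 to 0.983 among the NDF arrays. Differences of the 8 genes are therefore also given without that array. The sort marker Pdgfra was at 12.46 ± 0.15 in NDF and 12.54 ± 0.11 in CAF (SD, n = 3), and none of 14 fibroblast markers passed the test by limma (1 was higher and 3 were lower at an unadjusted p under 0.05). Some marker lists of other cells held genes that passed as higher, which 0.489% of all genes did. Of 21 macrophage markers 3 passed and the summed linear intensity ran from 784 to 1441 in NDF and from 3961 to 12501 in CAF. Of 13 neutrophil markers 3 passed, with sums of 217 to 785 and 8397 to 18904, and of 16 keratinocyte markers 3 passed, with sums of 7140 to 7818 and 11689 to 23438. Of 12 endothelial markers 1 passed, with sums of 1054 to 1499 and 1552 to 4195. Of 10 lymphocyte markers 1 passed, with sums of 199 to 214 and 293 to 845. At unadjusted limma p under 0.05, 14 macrophage, 8 neutrophil, 11 keratinocyte, 10 endothelial and 4 lymphocyte markers were higher, beside 4.93% of all genes. Of 9 mast cell, 6 pericyte and 6 melanocyte and Schwann cell markers none passed by limma. Of these, 4, 3 and 1 had an unadjusted p under 0.05, all with higher CAF values. In a bulk sample, more cells of a type and more RNA per cell cannot be told apart.

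The promoter sequences of C1qb and C1qc are shown because the C1q genes lie side by side, in the order C1qb, C1qc and C1qa, on mouse chromosome 4 and were all higher on every CAF array, and that of C5ar1 because it had the largest difference. Each run holds the 250 bases upstream of the RefSeq start, 5′ to 3′ on the gene's strand, from RefSeq on build GRCm38.p6. The capitals mark GAGGAA, a core that the myeloid factor PU.1 can bind, or its reverse complement. The positions are chr4:136886201-136886450 for C1qb, chr4:136892915-136893164 for C1qc and chr7:16259339-16259588 for C5ar1, all on the minus strand.
C1qb: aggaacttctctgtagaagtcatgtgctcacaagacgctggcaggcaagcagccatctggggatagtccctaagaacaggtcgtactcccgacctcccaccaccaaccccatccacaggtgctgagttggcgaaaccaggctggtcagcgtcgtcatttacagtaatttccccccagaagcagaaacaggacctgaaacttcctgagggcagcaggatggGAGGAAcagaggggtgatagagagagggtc
C1qc: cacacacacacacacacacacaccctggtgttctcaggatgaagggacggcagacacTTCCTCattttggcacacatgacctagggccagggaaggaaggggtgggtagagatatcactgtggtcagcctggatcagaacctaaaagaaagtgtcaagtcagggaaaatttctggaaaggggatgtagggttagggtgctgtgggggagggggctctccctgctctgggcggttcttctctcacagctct
C5ar1: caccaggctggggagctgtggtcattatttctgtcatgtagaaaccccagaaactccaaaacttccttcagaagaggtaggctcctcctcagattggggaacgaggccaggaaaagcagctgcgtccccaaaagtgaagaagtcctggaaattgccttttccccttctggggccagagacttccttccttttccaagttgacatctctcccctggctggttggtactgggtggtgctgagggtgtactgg
The table held promoters of 5 of the 8 measured genes, and GAGGAA was in 2 of these 5 on either strand, as against 23.3% of 32851 promoters of that length. In C1qb it began 30 bases before the start, and in C1qc its reverse complement began 193 bases before it. Short forms of other elements were searched on both strands in the same windows. TTCNNNGAA, of STAT elements, was in none of the 5 and in 7.02% of all promoters. GAAANNGAA, of interferon elements, was in C5ar1 alone of the 5 and in 7.13% of all. GGGANNNCC, a loose form of the NF-κB element, was in C1qc alone and in 15.8% of all. A match describes letters in this window and is not a binding site.

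By limma with Benjamini-Hochberg adjustment over all genes, none of the 8 complement genes passed an adjusted p of 0.05, where 0.517% of all genes did. At an unadjusted p under 0.05, 5 of the 8 were higher in CAF, beside 4.93% of all genes, and none was lower, beside 4.02%. For 6 of the 8, C1qa, C1qb, C1qc, Cfb, C3ar1 and C5ar1, every CAF array lay above every NDF array, beside 6.78% of all genes. The median difference of the 8 was 1.69, as against -0.04 over all genes, and 1.26 without CAF replicate 3. These shares describe a list chosen with earlier results of these data known. Over every probe set, 0 of the 14 passed, where 0.162% of 45037 did. Of the 14, 7 had higher CAF values with an unadjusted p under 0.05 (3.82% of all probe sets) and 9 had every CAF array above every NDF array (5.69% of all). On 11 of the 14 probe sets CAF replicate 3 was the highest of the 6 arrays. The share of all probe sets highest on that array, which stood apart, was not counted. The 11 therefore cannot be read as a trait of the complement genes.

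**Figure D1:**
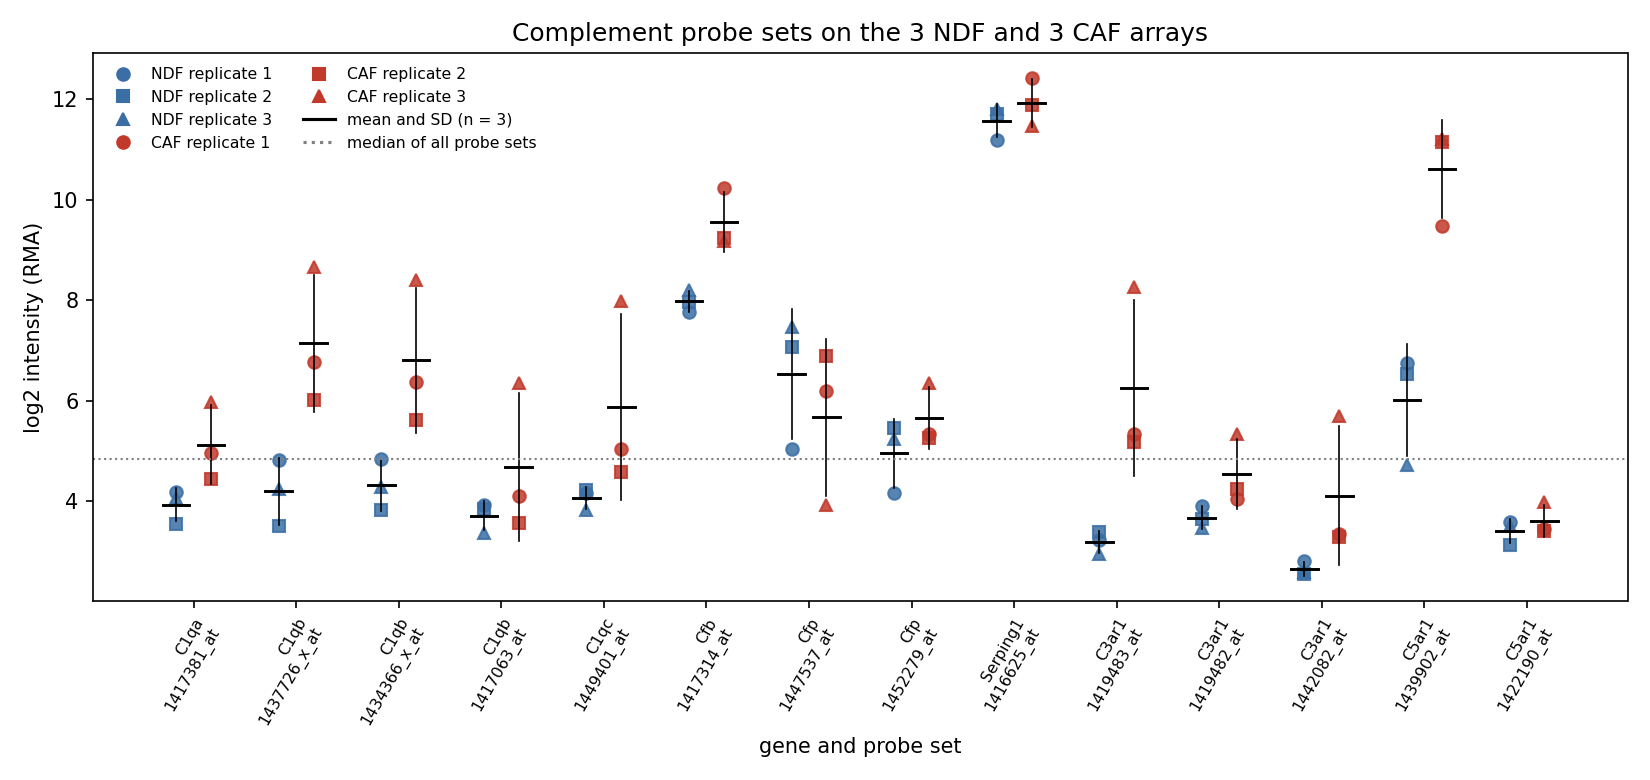
Log2 intensity (RMA) of the 14 complement probe sets on each array, with NDF in blue, CAF in red, the replicate given by the marker shape, bars for mean and SD (n = 3) and a dotted line at the median of all probe sets, 4.84. CAF replicate 3 (red triangles) is the highest array for all C1q and C3ar1 probe sets, whereas Cfb and Serping1 are highest on CAF replicate 1.

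The chains of C1q had higher values on every CAF array than on any NDF array, with the highest value on CAF replicate 3. For C1qb, the chain with the largest difference, the probe set with the highest mean read 4.83, 3.51 and 4.26 on NDF replicates 1, 2 and 3 and 6.77, 6.01 and 8.66 on CAF replicates 1, 2 and 3. The groups did not overlap, and the difference was 2.95 ± 0.69 (SE), with a 95% interval of 1.31 to 4.59 (limma adjusted p = 0.183). C1qa read 4.19, 3.56 and 4.06 in NDF and 4.96, 4.44 and 5.99 in CAF. Its difference was 1.19 ± 0.41 (limma adjusted p = 0.429). C1qc read 4.18, 4.22 and 3.82 in NDF and 5.05, 4.59 and 7.997 in CAF, so that CAF replicate 3 alone lay far above the rest. Its difference was 1.80 ± 0.84 with a 95% interval of -0.19 to 3.80 (limma adjusted p = 0.617). Without CAF replicate 3 the differences were 0.76 for C1qa, 2.19 for C1qb and 0.75 for C1qc. In that fit the limma adjusted p was 0.311 for C1qa, 0.0995 for C1qb and 0.242 for C1qc.

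The probe sets of C1qb differed in size of effect. A second probe set gave 4.32 ± 0.51 in NDF and 6.81 ± 1.44 in CAF, apart by 2.49 with no overlap and by 1.68 without CAF replicate 3. Both carry a suffix that marks probes matching further transcripts. The third, without that suffix, read 3.92, 3.85 and 3.38 in NDF and 4.12, 3.58 and 6.36 in CAF. Here only CAF replicate 3 exceeded the median probe set, the groups overlapped, and the difference was 0.97 with all arrays and 0.13 without CAF replicate 3.

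The macrophage markers had a median rise over the NDF mean of 1.27, 1.93 and 3.20 on CAF replicates 1, 2 and 3, so they too were highest on CAF replicate 3. The mean of the C1q chains stood at 1.52, 0.94 and 3.48 above the NDF mean there, higher on replicate 1 than on replicate 2, unlike the macrophage median. Of the defining macrophage genes, Csf1r, the CSF-1 receptor, read 7.82, 7.78 and 8.72 in CAF against 7.44 ± 0.19 in NDF (limma adjusted p = 0.588). Adgre1, a surface receptor gene of tissue macrophages, read 4.08, 3.75 and 5.79 in CAF against 3.30 ± 0.42 (limma adjusted p = 0.581). Both Csf1r and Adgre1 had the order of the C1q chains, CAF replicate 3 above 1 above 2, though Csf1r was nearly equal on replicates 1 and 2. Of the other macrophage markers, Fcgr1, Spi1 and Cybb had that order and the rest, Tyrobp among them, did not. The part of macrophage RNA in the C1q values was not tested.

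The search for like profiles took 9093 other genes with a mean at or above the median gene. The C1q chains themselves had means below it, so genes at their level were not searched. The 5 genes whose deviations from their NDF mean lay closest to the mean C1q profile over the 6 arrays were Mreg, Car13, Casq2, F13a1 and Trim29. Their root mean square differences from it ran from 0.34 for Mreg to 0.41 for Trim29. Mreg stood 1.21, 1.15 and 2.98 above its NDF mean on CAF replicates 1, 2 and 3. Car13 stood 1.65, 0.37 and 2.96 above its own, and Casq2 2.15, 1.12 and 3.05. F13a1, which encodes the A subunit of coagulation factor XIII and is found in tissue macrophages, stood 1.00, 1.69 and 3.21 above its own. It alone of the 5 was higher on replicate 2 than on replicate 1, unlike the C1q mean. Trim29, an epithelial gene, stood 1.24, 0.25 and 2.86 above its own. The keratinocyte marker list had a median rise of 1.78, 0.71 and 2.02 on these arrays. That is the order CAF replicate 3, 1 and 2 that the C1q chains, Csf1r and Adgre1 had. The part of keratinocyte RNA in the C1q values was not tested.

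**Figure D2:**
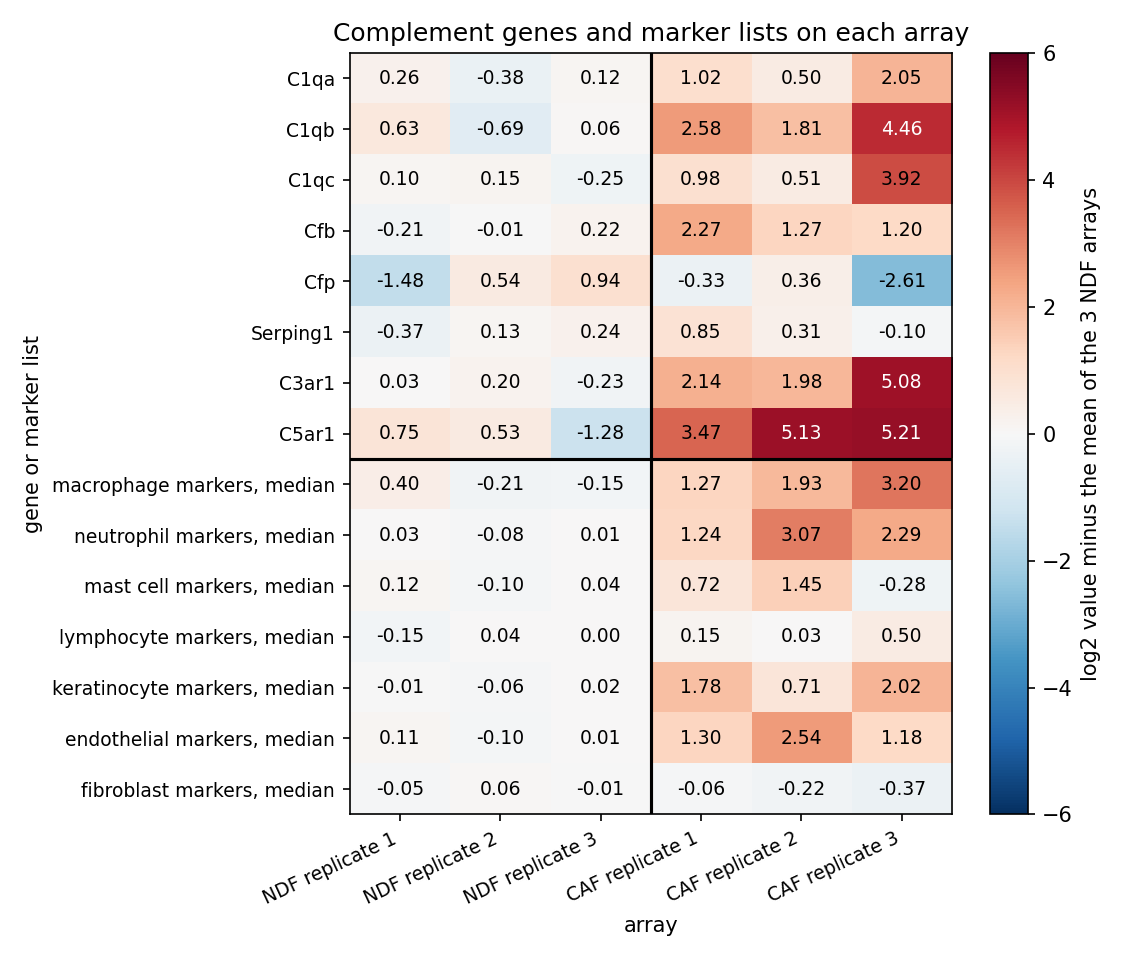
Log2 value minus the mean of the 3 NDF arrays for each complement gene (upper rows) and the median of the same quantity over each marker list (lower rows), with 1 column per array and red for values above the NDF mean. The C1q genes, C3ar1 and the macrophage list peak on CAF replicate 3, Cfb and Serping1 on CAF replicate 1, and the fibroblast list stays between -0.37 and 0.06.

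The alternative pathway genes did not move together. Cfb, the gene of factor B, which carries the protease of the C3 convertase, read 7.78, 7.97 and 8.20 in NDF and 10.25, 9.25 and 9.18 in CAF. All CAF arrays were above all NDF arrays, and the highest was CAF replicate 1, not replicate 3. The difference was 1.58 ± 0.32 or 2.99-fold, with a 95% interval of 0.82 to 2.34 (limma adjusted p = 0.128). It was 1.77 without CAF replicate 3 (adjusted p = 0.0800) and ran from 1.24 to 1.77 over the fits that left out 1 array. The NDF level was above the median probe set on every array.

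Cfp, the gene of properdin, had probe sets that went opposite ways. The one with the higher mean read 5.05, 7.07 and 7.48 in NDF and 6.20, 6.90 and 3.92 in CAF. The lowest value was that of CAF replicate 3, the groups overlapped, and the difference was -0.86 ± 0.91, with a 95% interval of -3.03 to 1.31 (limma adjusted p = 0.885). It was 0.016 without CAF replicate 3. The other probe set read 4.18, 5.47 and 5.24 in NDF and 5.35, 5.26 and 6.36 in CAF, with CAF replicate 3 highest and a difference of 0.70 ± 0.44 (limma adjusted p = 0.896 over all probe sets). No direction is given for Cfp.

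Serping1, the gene of C1 inhibitor, read 11.20, 11.70 and 11.82 in NDF and 12.43, 11.89 and 11.47 in CAF. The groups overlapped, since CAF replicate 3 lay below NDF replicates 2 and 3. The difference was 0.36 ± 0.30, with a 95% interval of -0.36 to 1.07 (limma adjusted p = 0.843). It was 0.58 without CAF replicate 3, 0.11 without CAF replicate 1 and 0.17 without NDF replicate 1. Serping1 and Cfb had the same order of CAF arrays, replicate 1 above 2 above 3, though Cfb was nearly equal on replicates 2 and 3 (9.25 and 9.18). The fibroblast markers had median rises of -0.06, -0.22 and -0.37 on these arrays. Their part in the Serping1 and Cfb values was not tested.

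With all arrays the anaphylatoxin receptors had the largest differences of the 8 genes. For C3ar1 that order was not stable, since C1qb exceeded it without CAF replicate 3 (2.19 against 2.06) and with the mean of all probe sets (2.13 against 1.80). C5ar1, which encodes the receptor of C5a, read 6.76, 6.54 and 4.73 in NDF and 9.48, 11.14 and 11.22 in CAF. Every CAF array lay more than 2 log2 units above every NDF array, and the difference was 4.61 ± 0.68 or 24.3-fold, with a 95% interval of 3.00 to 6.22. The limma adjusted p was 0.0505, just above the threshold, with a range of 0.0222 to 0.183 over the alternatives. Its other probe set read 3.58, 3.14 and 3.52 in NDF and 3.45, 3.40 and 3.99 in CAF, below the median probe set on all arrays, with overlapping groups and a difference of 0.20. The call for C5ar1 was made at adjusted p = 0.0461 without CAF replicate 1 and was missed when any other array was left out.

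C3ar1, which encodes the receptor of C3a, read 3.23, 3.39 and 2.96 in NDF and 5.33, 5.17 and 8.27 in CAF. CAF replicate 3 stood about 3 log2 units above the other CAF arrays, which lay close together. The difference was 3.07 ± 0.79, with a 95% interval of 1.18 to 4.96 (limma adjusted p = 0.238). Without CAF replicate 3 the difference was smaller, 2.06, but the arrays were closer to each other and it passed the threshold (adjusted p = 0.0163). The 2 other probe sets differed by 0.87 and 1.47, and by 0.47 and 0.67 without CAF replicate 3, and on both all CAF arrays lay above all NDF arrays. They exceeded the median probe set on CAF replicate 3 alone.

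The receptors thus had different profiles over the CAF arrays. C5ar1 stood 3.47, 5.13 and 5.21 above its NDF mean on CAF replicates 1, 2 and 3, and C3ar1 stood 2.14, 1.98 and 5.08 above its own. The neutrophil markers had median rises of 1.24, 3.07 and 2.29 on these arrays. Of the 13 neutrophil markers 10 had differences above 0, and Mpo, Elane and Ltf had differences of -0.18, -0.04 and -0.12. S100a8, a calcium-binding protein gene of the neutrophil list, read 11.66, 12.55 and 12.34 in CAF against 6.15 ± 1.56 in NDF (limma adjusted p = 0.0304). Csf3r, the G-CSF receptor, read 5.03, 6.86 and 6.09 against 3.80 ± 0.47 (limma adjusted p = 0.158). The myeloid adaptor Tyrobp rose by 3.65 ± 0.32, reading 7.66, 8.68 and 8.59 in CAF (limma adjusted p = 0.0134). For C5ar1, Csf3r and Tyrobp alike, CAF replicate 1 was the lowest CAF array. It was also the lowest for the neutrophil median and for the macrophage median, which rose by 1.27, 1.93 and 3.20. The macrophage median was higher on CAF replicate 3 than on 2, and the neutrophil median higher on 2 than on 3. C5ar1 was nearly equal on replicates 2 and 3, at 5.13 and 5.21. The part of neutrophil or macrophage RNA in the receptor values was not tested.

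**Figure D3:**
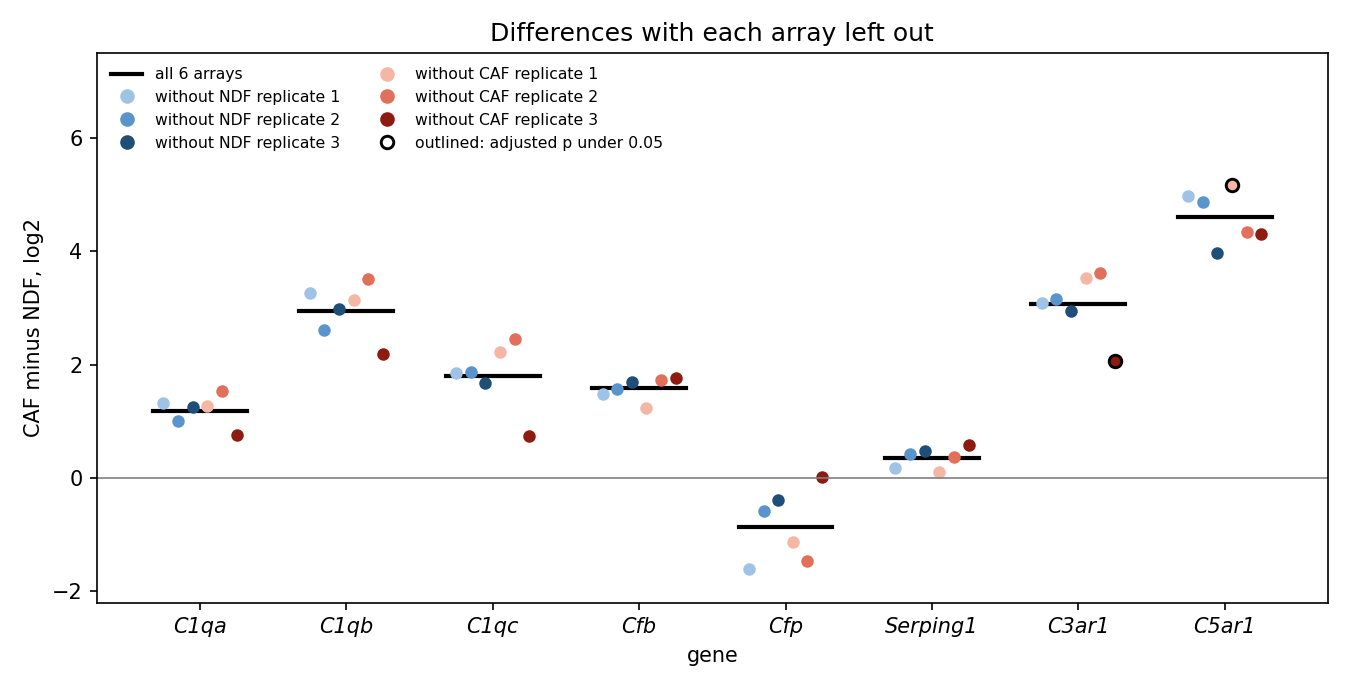
CAF minus NDF difference (log2) of each complement gene with all 6 arrays (black line) and with each array left out (points; outlined where the limma adjusted p was under 0.05). The C1q chains and C3ar1 have their smallest difference without CAF replicate 3, Cfp reaches 0.016 there, and C5ar1 stays between 3.97 and 5.17.

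Of 47 other complement genes 38 were measured. By limma 1 passed as higher and none as lower, beside 0.489% and 0.0275% of all genes. At an unadjusted p under 0.05, 5 were higher and 2 lower, beside 4.93% and 4.02% of all genes. The median difference of the 38 was 0.08, and -0.04 without CAF replicate 3. All CAF arrays lay above all NDF arrays for 6 of the 38 and below for 6, beside 6.78% and 8.66% of all genes. Of the 38, 25 were below the median gene on every array, beside 7674 of all 18193 genes.

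In the classical and lectin pathways, 1 of 12 measured genes passed. Masp1, which encodes serine proteases of the lectin pathway, rose from 7.68 ± 0.39 to 9.57 ± 0.15, a difference of 1.89 ± 0.24 (limma adjusted p = 0.0349). It read 7.43, 7.49 and 8.13 in NDF and 9.74, 9.53 and 9.44 in CAF, with the CAF arrays close to each other. Of its 4 other probe sets, those with the suffixes for shared probes differed by 1.84 and 1.46. The remaining pair differed by 0.11, at 7.83 in NDF and 7.94 in CAF, and by 0.04, at 3.04 and 3.09. The former thus had an NDF level like that of the called probe set. The call was lost with the mean of its probe sets (difference 1.07, adjusted p = 0.0743), without suffixed probe sets (0.11, adjusted p = 0.957), in the fit over all probe sets (adjusted p = 0.0642), with the replicate number as a block (adjusted p = 0.148), and without any 1 NDF array or CAF replicate 1 or 2 (adjusted p from 0.0819 to 0.180 over these arrays). C1s1, a protease of the C1 complex, read 9.73, 10.28 and 10.10 in NDF and 11.37, 10.79 and 10.21 in CAF, in the CAF order of Cfb and Serping1. Its difference was 0.75 ± 0.33 (limma adjusted p = 0.575), which became 1.04 without CAF replicate 3 and 0.46 without CAF replicate 1. Its probe set carries a suffix for probes shared between transcripts.

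None of 6 terminal pathway genes passed, and 2 had all CAF arrays below all NDF arrays, as 8.66% of all genes did. All 6 lay below the median gene of 6.05 on every array. C9, the pore-forming component, read 5.40, 5.29 and 4.77 in NDF and 4.41, 3.56 and 3.47 in CAF. The groups did not overlap and differed by -1.34 ± 0.31 (limma adjusted p = 0.185). C8b, a subunit of the same complex, differed by -0.26, with all arrays below the median probe set. Among 6 soluble regulators none passed. Clu, the gene of clusterin, which inhibits the terminal complex, was at 11.85 ± 0.11 in NDF and 12.42 ± 0.33 in CAF (limma adjusted p = 0.506), and its 3 other probe sets differed by 0.44 to 0.57, all without overlap. Cpn2, a subunit of the carboxypeptidase that inactivates anaphylatoxins, differed by -0.59 between values of 4.00 and 3.41.

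None of 7 membrane regulators passed. Cd59a, which blocks the terminal complex on cell surfaces, was at 8.25 ± 0.25 in NDF and 7.79 ± 0.22 in CAF (limma adjusted p = 0.609), and a second probe set of it showed equal means of 5.14. Csmd1, a large complement-regulating membrane protein gene, differed by 2.25 ± 0.52 on 1 of its 4 probe sets (limma adjusted p = 0.181), and by at most 0.21 on the others. It was 1.77 without CAF replicate 3, and with array quality weights it passed (1.98, adjusted p = 0.0390). Of 7 receptors none passed. Itgb2, the common chain of complement receptors 3 and 4, read 3.99, 3.09 and 3.88 in NDF and 4.54, 6.34 and 6.81 in CAF. Its difference was 2.24 ± 0.60 (limma adjusted p = 0.253) and 1.79 without CAF replicate 3. CAF replicate 1 was the lowest CAF array, as for C5ar1, and without it Itgb2 passed (2.92, adjusted p = 0.0445). Of its partner chains in these receptors, Itgam was at 3.11 in NDF and 3.01 in CAF (limma adjusted p = 0.944). Itgax was at 3.54 and 4.59 (limma adjusted p = 0.630), highest on CAF replicate 2. Cd93, an endothelial and myeloid receptor once described as a C1q receptor, was at 8.34 ± 0.91 and 10.09 ± 0.58 (limma adjusted p = 0.305). A second probe set of Cd93 differed by 1.84 and 3 more by -0.24 to 0.0013, and the mean of all of them by 0.65. The endothelial marker list had median rises of 1.30, 2.54 and 1.18 on CAF replicates 1, 2 and 3.

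**Figure D4:**
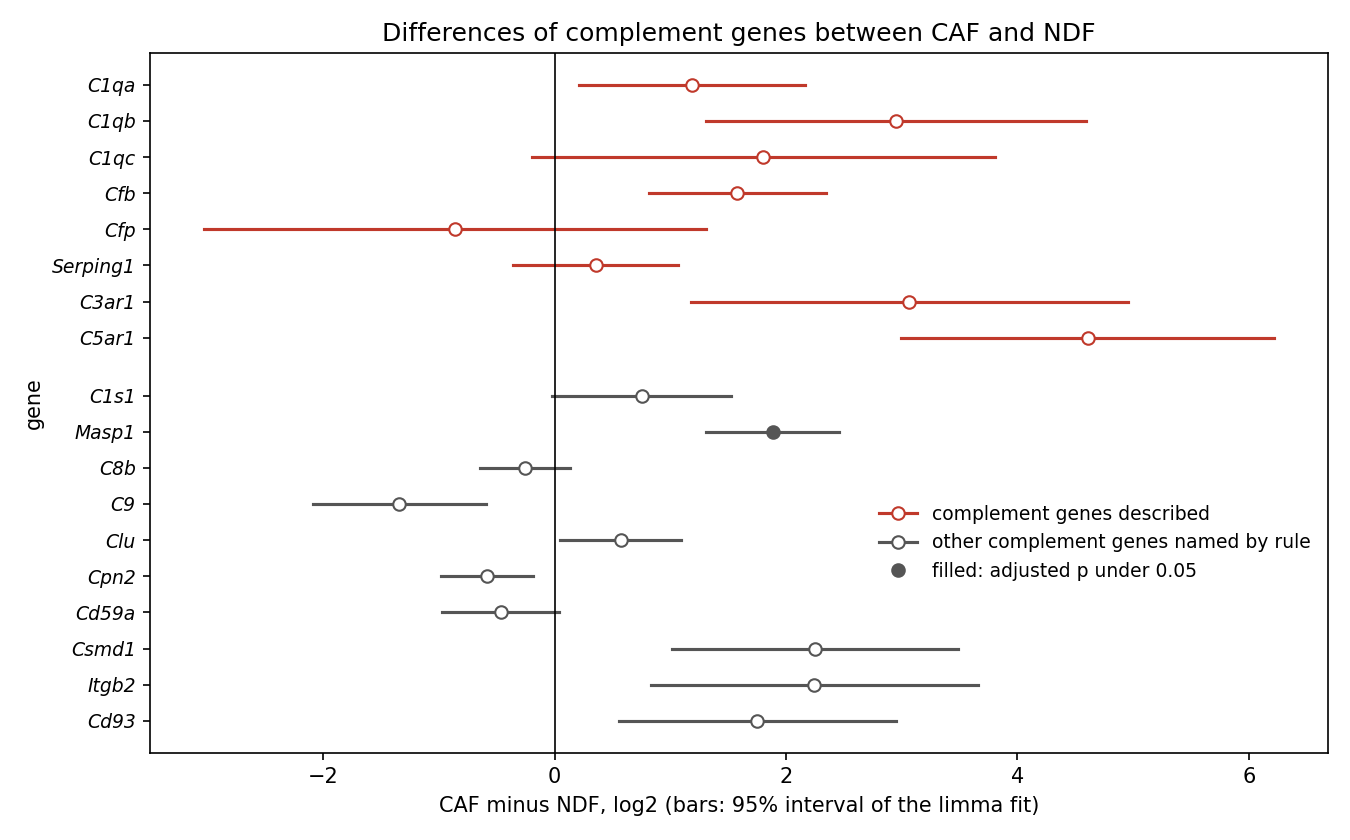
CAF minus NDF difference (log2) with its 95% interval from the limma fit for the 8 complement genes (red) and the other complement genes named by rule (grey), filled where the adjusted p was under 0.05. Masp1 is the filled point, and C5ar1 has the largest difference, 4.61, with an interval from 3.00 to 6.22.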

How the data were processed

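Per the submitters' processing notes, GCOS and RMA processed the arrays, with no version in these notes. The table deposited by the authors holds log2 values. RMA subtracts background, quantile normalises and summarises probes, which compresses low values. Per the labels' protocols, WT-Ovation amplification was run once on the RNA. The 45101 probe sets hold 64 controls. Of the others 34945 name 1 gene, 932 several and 9160 none in the annotation used, and 34741 matched RefSeq (GRCm38.p6) by identifier with 0 symbols changed. Each gene took its probe set with the highest mean. The groups were tested in limma 3.58.1, R 4.3.3 (lmFit, eBayes, two-sided, Benjamini-Hochberg over 18193 genes, threshold 0.05), and every probe set in a second fit over 45037. Detection calls were not used.

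Members and lists were chosen with earlier results of these data known. The rule named all probe sets of each member, other complement genes past the threshold or with the 2 smallest p per list, defining markers, and the 5 profiles nearest the C1q mean. The same was planned for C3, not analysed here. Simulated data with 18193 genes gave recovery of 16%, 62%, 88% and 84% for changes of 1, 2, 3 and 4 log2 units, with 11 false calls. Alternatives were a replicate block, renormalisation, filters, probe set choices, other priors, array weights and leaving out arrays. Figures used matplotlib 3.10.9 in Python 3.11.15.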

Additional observations from a re-analysis of the deposited data

How the results depend on the processing

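The count of complement genes past the threshold was 0 of 8 with all arrays and ran from 0 to 1 when 1 array was left out. It was 1 with equal array medians, with probe sets at or above the median only, with the mean of all probe sets, with suffixed probe sets left out, with an intensity trend and at an adjusted p under 0.1, each time C5ar1, and 4 with array quality weights (C1qb, Cfb, C3ar1 and C5ar1). The differences of the 8 genes and of the 10 other complement genes named by rule kept their sign under every alternative run, except that of Cfp. The Cfp difference ran from -1.60 without NDF replicate 1 to 0.016 without CAF replicate 3. The count of other complement genes, 1 of 38, became 0 with the replicate block, the mean of all probe sets, suffixed probe sets left out and every probe set on its own, 2 with array quality weights (Masp1 and Csmd1), and 0 to 1 when 1 array was left out, the call being Itgb2 instead of Masp1 without CAF replicate 1. Over all genes the count of 94 became 20 with the replicate block, 155 with an intensity trend, 438 with array quality weights and 198 at an adjusted p under 0.1, and ran from 5 to 156 when 1 array was left out. Over all probe sets the count of 73 became 8 with the replicate block and ran from 7 to 78 when 1 array was left out. Samples with the same replicate number did not deviate together, with correlations of -0.15, 0.11 and -0.01, and were not treated as pairs. The median of the other complement genes was 0.17 with probe sets at or above the median only. No detection call or signal above background was at hand, so values near the low end have no bound.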
